A study of Homo sapiens with 18 samples.

Results

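The comparison of N108 against M3 after TNF set 3 RNA-seq libraries of one mutant knock-in line of HCT116 cells against 3 libraries of another, 6 of the 18 libraries in the series. HCT116 is a human colorectal carcinoma line of epithelial origin. The N108 line carries a knock-in of IκBα that the labels name by residue 108, without stating the substitution. The M3 line carries a knock-in in which histidine 84, glutamate 85 and glutamate 86 are replaced by alanine. Both groups had received human TNFα at 0.1 µg/mL for 40 min before total RNA was extracted. Untreated libraries of the same 2 lines (3 each), and of a line with a WT IκBα knock-in with TNF (3), served to place the values. The series asks which functions of IκBα bear on intestinal stemness apart from NF-κB, and this comparison sets its 2 mutants against each other under a stimulus that releases NF-κB. The genes compared were the 19038 of 61552 in the count table that passed a filter on low counts. Each genotype was 1 line in the labels, so that a mutation and the clone that carries it cannot be told apart. No label states that the 3 libraries of a group came from separate cultures, and a p-value here reflects library-to-library spread that could be technical.

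IκBα, encoded by NFKBIA, is an ankyrin repeat protein that binds NF-κB dimers and keeps them out of action in the cytoplasm. TNF signals through its receptor complex to the IKK kinases, which phosphorylate IκBα and send it to the proteasome. Freed NF-κB enters the nucleus, binds κB sites in promoters and enhancers, and within minutes induces chemokines, cell survival genes and its own inhibitors, NFKBIA and TNFAIP3 among them. A fraction of IκBα is also known from the nucleus, where it has been linked to chromatin and to Polycomb-regulated genes.

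The edited residues lie close together. They are encoded in exon 2 of NFKBIA on the minus strand of chromosome 14, and the stretch of 33 codons from 80 to 112 at chr14:35403690-35403788 (GRCh38, GENCODE 29) is shown to place both mutants. Capitals mark the codons of H84, E85 and E86, which M3 changes, and of N108, all as in the reference genome.
NFKBIA codons 80 to 112: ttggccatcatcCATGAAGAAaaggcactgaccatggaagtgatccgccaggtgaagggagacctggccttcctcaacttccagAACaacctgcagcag
The counts are per gene and do not tell an edited transcript from an unedited one.

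The 6 libraries held between 49021907 and 63471876 counts. Levels are given as CPM (counts scaled to a common library size), log2 fold changes are N108 over M3, and p-values are from edgeR's quasi-likelihood test, adjusted by Benjamini-Hochberg over the tested genes with a threshold of 0.05. Epithelial markers summed to 5210 to 5660 CPM in N108 and 4130 to 4430 CPM in M3 libraries. The T cell receptor subunits CD3D, CD3E and CD3G, the B cell marker MS4A1 and the fibroblast genes COL1A2, DCN and LUM had no counts in any of the 6. Other members of these marker lists did have counts. The 8 fibroblast markers summed to 33.1 to 38.7 CPM in N108 and 33.9 to 35.9 CPM in M3 libraries. The 8 T cell markers summed to 2.12 to 2.46 and 3.0 to 3.11 CPM, and the 6 B and plasma cell markers to 0.369 to 0.667 and 0.284 to 0.507 CPM. In bulk libraries, fewer cells of a type and less RNA per cell cannot be told apart. The N108 libraries differed among themselves by the GC content of transcripts: deviations from the group mean correlated with GC content at a Spearman rho of 0.45 in replicate 2 and -0.52 in replicate 3, against 0.02 in replicate 1 and between -0.04 and 0.05 in the 3 M3 libraries. Results that this touches were recomputed with the trend removed and without N108 TNF replicate 3.

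With TNF, 7107 of the 19038 genes (37.3%) differed between N108 and M3, 3815 higher in N108 (20.0%) and 3292 lower (17.3%). The counts of called members in each gene list below are to be read beside these shares. Members named from lists other than the NF-κB ones were chosen for the smallest p in this comparison. That their libraries do not overlap thus follows largely from the choice. Most differences were small: the median absolute log2 fold change among called genes was 0.32, and 757 genes (3.98%) differed by at least 2-fold, 468 higher (2.46%) and 289 lower (1.52%). In the untreated libraries of the same lines, 5994 genes differed (31.5%), 3130 higher (16.4%) and 2864 lower (15.0%). The higher sets shared 2290 genes, 60.0% of those called with TNF and 73.2% of those called untreated, and the lower sets shared 1885, 57.3% and 65.8%. Of the 757 genes with at least a 2-fold difference under TNF, 722 had the same sign untreated and 539 were also called there in that direction. Most of the large differences between the lines thus stood before TNF was added.

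NFKBIA itself had one of the largest deficits in N108. Its level with TNF was 274, 296 and 258 CPM in the 3 N108 libraries, against 943, 985 and 969.7 CPM in the 3 M3 libraries. The groups stood far apart, with every N108 library far below every M3 library. The log2 fold change was -1.81 (SE 0.051, adjusted p = 1.5e-20), a 3.5-fold lower level. Untreated libraries had 30.1, 28.5 and 32.1 CPM in N108 and 79, 78.1 and 76.7 CPM in M3, a log2 fold change of -1.37 (adjusted p = 1.9e-17). TNF raised NFKBIA in both lines, by a log2 fold change of 3.19 in N108 and 3.63 in M3. The WT line with TNF averaged 758 ± 19.8 CPM (SD, n = 3), so the M3 line lay above it and the N108 line below.

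**Figure D1:**
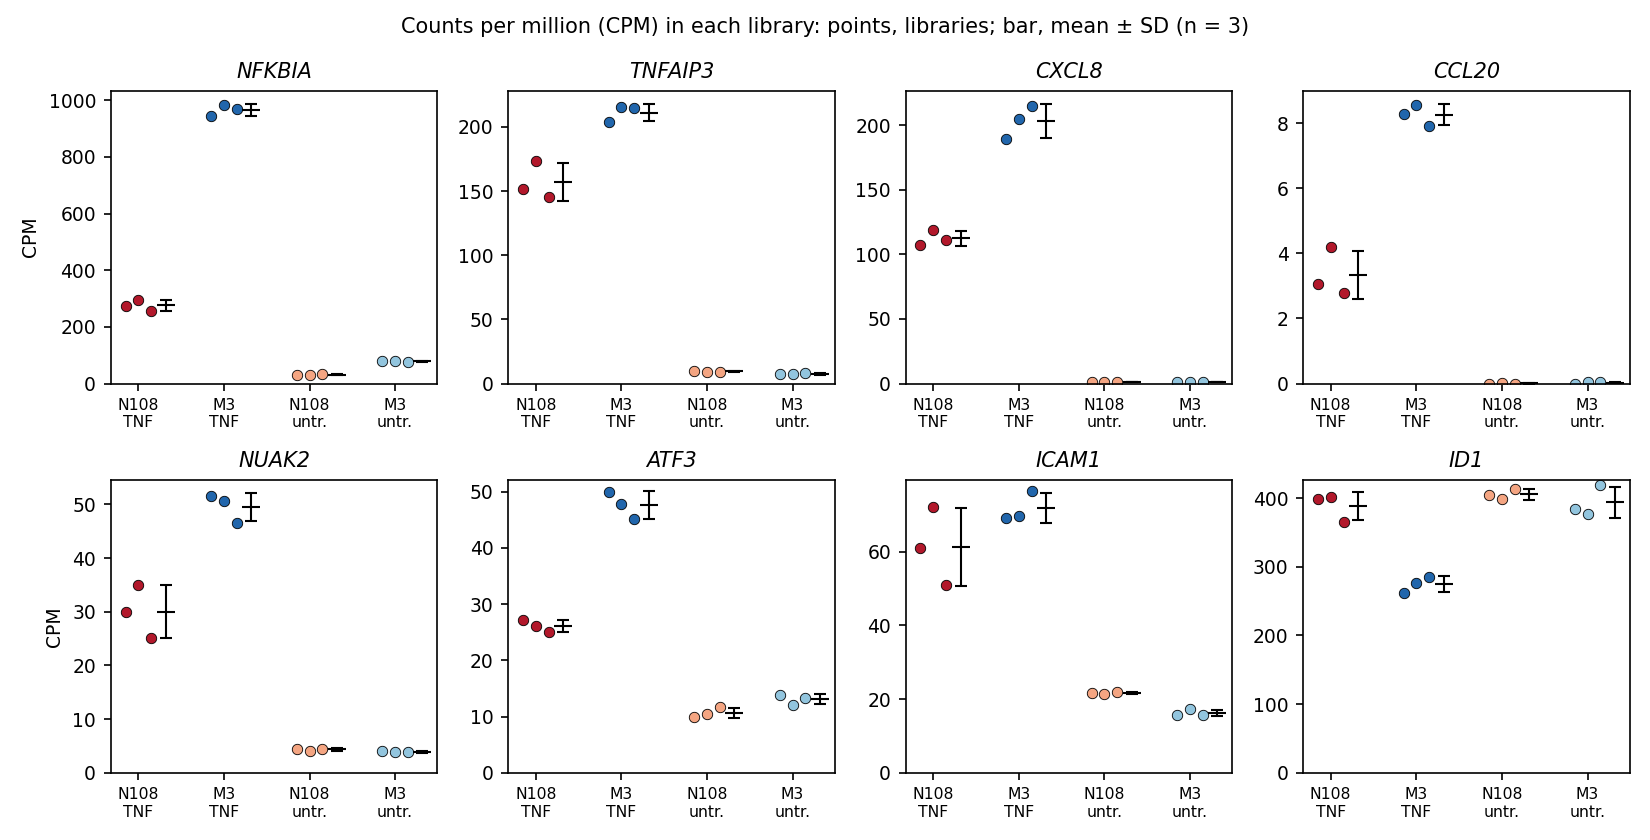
CPM of 8 genes in the 3 libraries of each group, N108 and M3 with TNF and then untreated (untr.), with the mean and SD beside the points. NFKBIA, TNFAIP3, CXCL8, CCL20, NUAK2 and ATF3 were lower in all 3 N108 libraries with TNF than in any M3 library, ICAM1 libraries overlapped, and ID1 was higher in N108.

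Upstream of IκBα, differences in the machinery that carries the TNF signal were small in size, with log2 fold changes from -0.38 to 0.26. Of 26 genes of the TNF receptor complex and IKK activation, 8 were higher and 5 lower in N108 against 37.3% called over all genes, no fold reached 2, and the list's median log2 fold change was 0.03 beside -0.002 over all genes. The count moved with the setting, to 4 higher and 4 lower without N108 TNF replicate 1 and 5 higher and 4 lower with the GC trend removed. TNFRSF1A, the receptor for TNF on most cell types, was at 90, 95.5 and 89.4 CPM in N108 and 77.5, 80 and 75.5 CPM in M3 libraries (log2 fold change 0.24, adjusted p = 0.00029). CASP8, the initiator caspase that the receptor complex can activate, was at 34, 33.9 and 34.8 CPM in N108 and 42.7, 44.4 and 46.3 CPM in M3 libraries (log2 fold change -0.38, adjusted p = 2.2e-06). TAB2, which couples ubiquitin chains to the kinase TAK1, was lower by a log2 fold change of -0.23 (adjusted p = 0.00027). Each of these 3 genes had N108 and M3 libraries that did not overlap, and each differed in the same direction untreated.

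The NF-κB subunit genes were near the same level in both lines. RELA was at 106, 111 and 101 CPM in N108 and 94.5, 103 and 93.5 CPM in M3 libraries, which overlapped, with a log2 fold change of 0.13 (adjusted p = 0.035). NFKB1 was at 57.6, 58.4 and 60.5 CPM in N108 and 54.8, 51.9 and 53.8 CPM in M3 libraries (log2 fold change 0.14, adjusted p = 0.014). Both calls were lost under several settings, the one for RELA among them when the GC trend was removed (adjusted p = 0.46). RELB, REL and NFKB2 had log2 fold changes of 0.19, 0.15 and 0.08 and did not pass the threshold, though REL passed with the GC trend removed (adjusted p = 0.0024).

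Among the other IκB family genes, the direction was mixed. NFKBIZ, an atypical nuclear IκB that NF-κB induces, was at 52.2, 59.7 and 51.6 CPM in N108 and 64.7, 68.7 and 64.5 CPM in M3 libraries (log2 fold change -0.28, adjusted p = 0.00051). NFKBIB, which encodes IκBβ, was higher, at 55.1, 56.3 and 49.3 CPM in N108 and 41.5, 41 and 43.5 CPM in M3 libraries (log2 fold change 0.35, adjusted p = 4.4e-05). The libraries of both genes did not overlap between the lines. NFKBIE, NFKBID, NFKBIL1 and BCL3 had log2 fold changes of 0.03, 0.16, 0.02 and 0.21 and did not pass. The family thus counted 1 higher and 2 lower of 7, near the shares over all genes except for the size of the NFKBIA difference.

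The chemokines CXCL8, CXCL1, CXCL2, CXCL3 and CCL20, which NF-κB induces, were lower in N108 after TNF, and their untreated differences were not called. Of these 5, the change in the difference with TNF passed the interaction test for CXCL8 (adjusted p = 0.017) and not for CXCL1 (0.66), CXCL2 (0.57), CXCL3 (0.48) or CCL20 (0.97). Of 27 chemokine and cytokine genes 18 were tested, and 8 were lower and 3 higher in N108, against 17.3% and 20.0% of all genes. The list's median log2 fold change was -0.53 with TNF and 0.05 untreated, where 2 members were higher and 2 lower. CXCL8, the neutrophil attractant interleukin 8, reached 107, 119 and 111 CPM in N108 and 189, 205 and 215 CPM in M3 libraries. Every N108 library lay well below every M3 library, with a log2 fold change of -0.85 (SE 0.061, adjusted p = 1.4e-11). Untreated, CXCL8 averaged 1.02 ± 0.0412 CPM in N108 and 0.946 ± 0.0406 CPM in M3 (SD, n = 3 each), a log2 fold change of 0.11 (adjusted p = 0.65). The WT line with TNF averaged 132 CPM.

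CCL20, which draws cells that carry the receptor CCR6 to mucosa, was at 3.06, 4.18 and 2.78 CPM in N108 and 8.29, 8.55 and 7.92 CPM in M3 libraries (log2 fold change -1.31, SE 0.15, adjusted p = 1.4e-07). The 3 closely related neutrophil attractants CXCL1, CXCL2 and CXCL3 followed the same order. CXCL1 was at 89.8, 110.5 and 85 CPM in N108 and 129, 143 and 134 CPM in M3 libraries (log2 fold change -0.51, adjusted p = 5.3e-06). CXCL2 was at 19.2, 27.5 and 20.1 CPM in N108 and 35.8, 41.3 and 39.7 CPM in M3 libraries (log2 fold change -0.81, adjusted p = 4.1e-06). CXCL3 was at 35.8, 42 and 28.4 CPM in N108 and 57.2, 63.6 and 60.2 CPM in M3 libraries (log2 fold change -0.77, adjusted p = 6.3e-06). The N108 libraries of all 4 genes lay below the M3 libraries. CXCL1, CXCL2 and CXCL3 are near-identical in sequence, so reads may be split among them uncertainly. Untreated, all 4 were under 1 CPM in both lines, with log2 fold changes of -0.26 for CXCL1 (SE 0.24), -0.29 for CXCL2 (SE 0.39), -0.24 for CXCL3 (SE 0.31) and -1.32 for CCL20 (SE 1.3). CCL20 had 0 to 3 counts in each untreated library, too few to show a difference of that size.

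The other called members of the list were low or went the other way. IL32, IL1A and IL23A, named to complete the count, were lower with log2 fold changes of -1.67, -1.47 and -1.13, at means under 1 CPM in both lines. IL18, a cytokine that epithelia hold as a precursor, was at 95.6, 96.1 and 109 CPM in N108 and 81.8, 84.2 and 84.3 CPM in M3 libraries (log2 fold change 0.27, adjusted p = 0.00016). LIF, a cytokine of the interleukin 6 family, was at 80.3, 83.1 and 68.8 CPM in N108 and 67.6, 70.9 and 64.3 CPM in M3 libraries, which overlapped (log2 fold change 0.20, adjusted p = 0.0081). The LIF call was lost without N108 TNF replicate 1 or 2, without M3 TNF replicate 3, and with the GC trend removed. CSF2 was the third higher member, with a log2 fold change of 1.12 at 0.398 CPM in N108 and 0.173 CPM in M3. CSF1 and CXCL16 had log2 fold changes of -0.03 and -0.11 and did not pass, while CXCL16 was called untreated (-0.18, adjusted p = 0.0046).

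Feedback, survival and adhesion genes under NF-κB were split. Of 21 tested members of 26, 10 were lower and 7 higher in N108 with TNF, against 17.3% and 20.0% of all genes. Untreated, 3 were lower and 10 higher, against 15.0% and 16.4% of all genes. The list's median log2 fold change was -0.03 with TNF and 0.19 untreated. TNFAIP3, which encodes the ubiquitin-editing enzyme A20 that shuts the TNF signal off, was at 151, 174 and 146 CPM in N108 and 204, 216 and 215 CPM in M3 libraries with TNF (log2 fold change -0.43, SE 0.055, adjusted p = 5.6e-07). Untreated it stood in the opposite order, at 10, 9.21 and 9.29 CPM in N108 and 7.17, 7.36 and 8.22 CPM in M3 libraries (log2 fold change 0.33, adjusted p = 0.00082). The lines did not overlap in either condition, so the sign of the difference turned with the stimulus.

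PLAU, the urokinase protease, was at 99.5, 108 and 88.9 CPM in N108 and 205, 201 and 208 CPM in M3 libraries (log2 fold change -1.05, SE 0.056, adjusted p = 2e-14), and its untreated log2 fold change of -1.01 was about as large. CD83, a membrane protein of activated immune cells, was at 34.8, 31.8 and 31.9 CPM in N108 and 45.5, 45.5 and 50 CPM in M3 libraries (log2 fold change -0.52, adjusted p = 1.4e-07), with a value of -0.04 untreated. EFNA1, an Eph receptor ligand, was at 60.9, 68.7 and 51.6 CPM in N108 and 76.5, 76.4 and 78 CPM in M3 libraries (log2 fold change -0.35, adjusted p = 0.00031). These 3 genes had N108 libraries that all lay below the M3 libraries. Smaller deficits were called for TNFAIP8 (-0.35), IER3 (-0.26), IRF1 (-0.23) and the syndecan SDC4 (-0.21), and SELE, named to complete the count, had -1.86 at under 1 CPM. ICAM1, the leukocyte adhesion molecule, was at 61, 72.2 and 50.9 CPM in N108 and 69.1, 69.8 and 76.5 CPM in M3 libraries, which overlapped. Its log2 fold change was -0.23 (adjusted p = 0.032), and the call was lost without N108 TNF replicate 1 (adjusted p = 0.067), N108 TNF replicate 3 (0.18) or M3 TNF replicate 3 (0.12).

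The members that were higher in N108 included binding partners of A20. TNIP1, which targets A20 to its substrates, was at 85.2, 95.6 and 77.8 CPM in N108 and 55.1, 61.9 and 65.1 CPM in M3 libraries (log2 fold change 0.51, adjusted p = 3.5e-07), and TNIP2 had a log2 fold change of 0.29 (adjusted p = 0.00018). F3, tissue factor of the clotting cascade, was at 19.6, 21.6 and 19.2 CPM in N108 and 12, 12.8 and 13.2 CPM in M3 libraries (log2 fold change 0.67, adjusted p = 1.9e-09), with 0.99 untreated. TRAF1 (0.58), CD44 (0.23) and the survival gene BCL2L1 (0.23) were higher too. RELT (0.22) was called with overlapping libraries, and its call was lost without N108 TNF replicate 1 or 2, without M3 TNF replicate 3, and with the GC trend removed. TNFAIP2, IER5 and ZC3H12A did not pass.

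Immediate early genes, which growth factors and stress induce without new protein synthesis, were split. All 42 were tested, with 18 lower and 11 higher in N108, against 17.3% and 20.0% of all genes. Untreated, 10 were lower and 12 higher, against 15.0% and 16.4% of all genes. Without N108 TNF replicate 3, 12 were lower and 13 higher, and with the GC trend removed and all libraries kept, 18 were lower and 7 higher. ZFP36, which encodes tristetraprolin and speeds the decay of cytokine mRNAs, was at 87.5, 92.7 and 78.1 CPM in N108 and 159.9, 165 and 155 CPM in M3 libraries (log2 fold change -0.89, SE 0.054, adjusted p = 3.8e-13). ATF3, a stress-induced repressor of the AP-1 kind, was at 27.2, 26.1 and 25 CPM in N108 and 50, 47.9 and 45.1 CPM in M3 libraries (log2 fold change -0.87, SE 0.064, adjusted p = 2.1e-11). ZFP36L2, a relative of ZFP36, was higher, at 106, 114 and 109.5 CPM in N108 and 65.1, 67.3 and 68.8 CPM in M3 libraries (log2 fold change 0.71, adjusted p = 9.8e-13). None of the 3 overlapped between lines.

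The direct question, whether TNF moved a gene by a different amount in the 2 lines, was tested as the interaction of genotype and TNF in the fit of all 18 libraries. It called 15 of 19038 genes (0.0788%), 14 with a smaller response in N108 and 1 with a shift the other way. Of the 15, 8 stood in the NF-κB lists, which held 51 of the 19038 tested genes, and 12 in those lists or the immediate early list. Of these 51 genes, 35 had a negative interaction value, with a median of -0.14. The lists were chosen with earlier results of these data known. TNFAIP3 had an interaction log2 fold change of -0.76 (adjusted p = 0.00012), from responses of 4.04 in N108 and 4.80 in M3. NUAK2, a stress-activated kinase of the AMPK family, had -0.87 (adjusted p = 0.0062), from 2.79 in N108 and 3.66 in M3. NFKBIA had -0.44 (adjusted p = 0.0062), ATF3 -0.58 (adjusted p = 0.0069) and MAFF, a small Maf transcription factor, -0.56 (adjusted p = 0.0018). These 5 genes were called in all 19 other settings that tested for any difference, leaving out each library included. The count itself moved with the libraries: leaving out N108 TNF replicate 3 gave 650 calls, of which 508 had a positive value and 142 a negative one, the reverse of the split above. Positive values were also the majority by DESeq2 (28 of 47) and with no low-count filter (119 of 163), so the split of 14 to 1 holds for the filtered edgeR fit with that library. The 15 genes themselves kept their call and direction in these settings. Leaving out N108 untreated replicate 1 or 2 or M3 untreated replicate 1 gave 9, and the count fell to 7 with the loss of N108 untreated replicate 3, M3 untreated replicate 2 or M3 TNF replicate 2.

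CXCL8 had the largest interaction value of the 15, -0.96 (adjusted p = 0.017), but at about 1 CPM untreated its call was lost without N108 untreated replicate 2 or 3, without any one M3 untreated library, and with the GC trend removed (adjusted p = 0.86). The value itself was -1.02 to -0.92 with a library left out and -0.76 with the GC trend removed. The other called genes with a smaller response were ICAM1 (-0.65), PDGFB (-0.62), NFKBIZ (-0.57), CD83 (-0.47), IRF1 (-0.44), ZFP36 (-0.44), SDC4 (-0.41) and the kinase PLK2 (-0.32), and each lost its call in at least 5 of the 19 settings. Some genes with a smaller response were called higher in N108 untreated. Log2 fold changes untreated and with TNF were 0.69 and 0.06 (PDGFB), 0.42 and -0.13 (MAFF) and 0.42 and -0.23 (ICAM1). They were 0.33 and -0.43 (TNFAIP3), 0.30 and -0.28 (NFKBIZ), 0.21 and -0.23 (IRF1) and 0.20 and -0.21 (SDC4). NFKBIA, ATF3 and ZFP36 were lower in both conditions, and CXCL8, NUAK2, CD83 and PLK2 were not called untreated. MAFF and PDGFB were named after their values were seen, to complete the set of 15. The gene with a positive interaction value was ID1, a dominant negative helix-loop-helix factor that BMP signals induce. With TNF it was at 399, 402 and 366 CPM in N108 and 262, 276 and 285 CPM in M3 libraries, against 405, 398 and 414 CPM untreated in N108 and 385, 378 and 419 CPM untreated in M3. TNF lowered ID1 by a log2 fold change of -0.52 in M3 (adjusted p = 5.2e-08) and the value in N108 was -0.06 (adjusted p = 0.58), giving an interaction of 0.46 (adjusted p = 0.0062) that was called in all 19 settings.

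**Figure D2:**
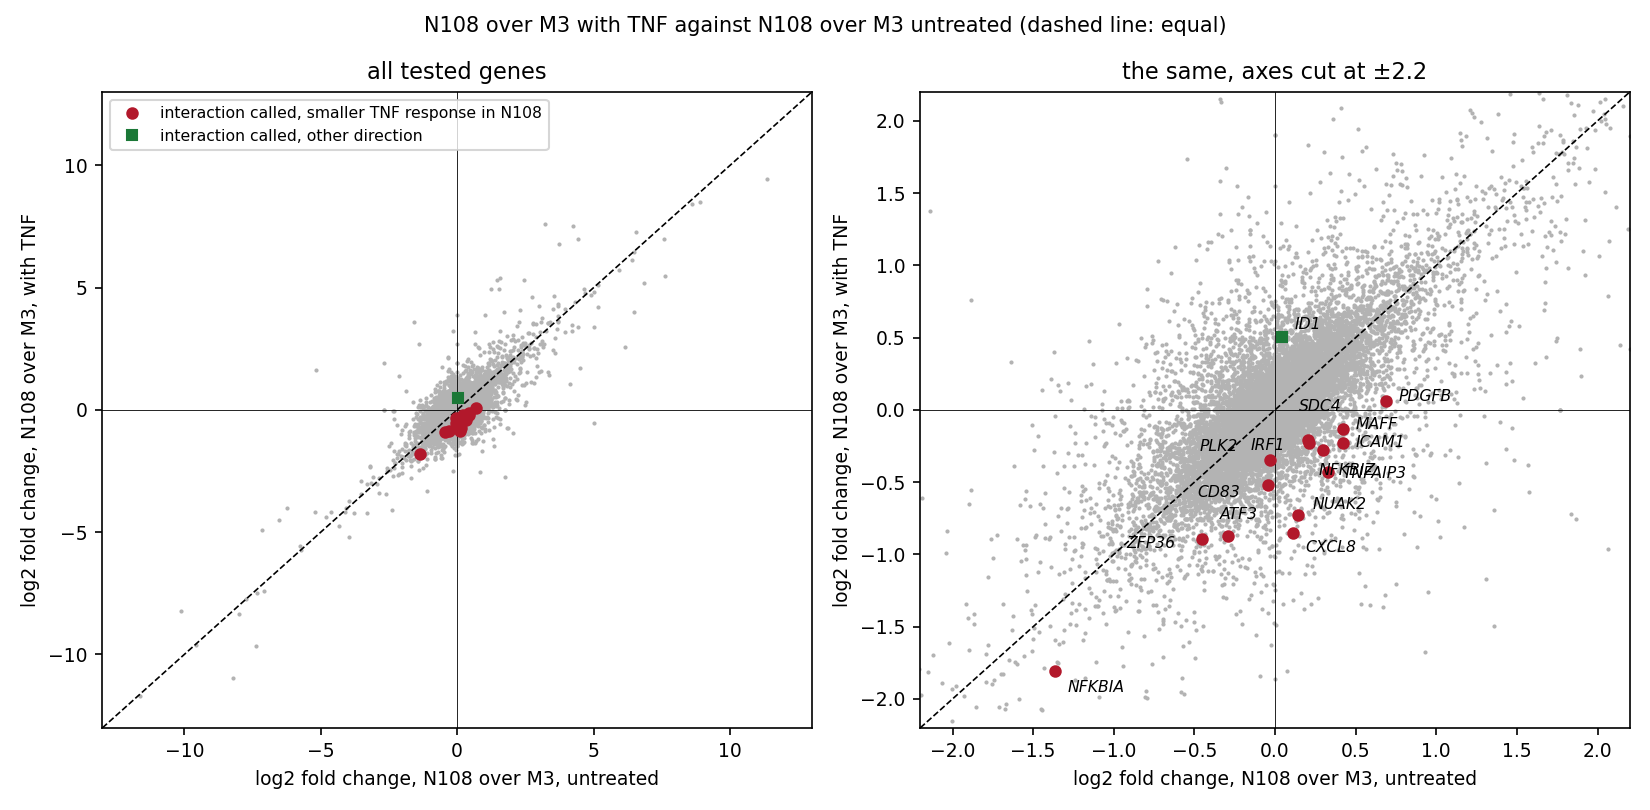
Log2 fold change of N108 over M3 with TNF (vertical) against the same untreated (horizontal) for each tested gene, with the 15 genes called in the interaction marked, at full range on the left and cut on the right. The 14 genes with a smaller TNF response in N108 lie below the dashed line of equal values, NFKBIA at -1.81 with TNF and -1.37 untreated, and ID1 lies above it at 0.50 and 0.04.

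Across all genes that TNF raised, the 2 lines overlapped in large part. TNF raised 209 genes in each line (1.1%), 144 of them in both (68.9% of each list). The TNF and untreated libraries behind these calls are different libraries in each line, so the overlap does not come from shared controls. Of the 144, 52 were lower and 33 higher in N108 than in M3 with TNF (median log2 fold change -0.07), and 20 were lower and 42 higher untreated (median 0.09).

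The promoters of the chemokine and interaction genes were read from RefSeq (GRCh38.p14) for letters of the κB type, GGGNNNTTCC or GGAANTTCC on either strand, in the 250 bases before and 50 after each gene's start. The motifs overlap each other, since GGGAATTTCC holds both. They were in 986 of 12291 promoters of tested genes (8.02%), in 7 of 13 matched promoters of the genes with a smaller response in N108 (53.8%), in 7 of 14 of the chemokine and cytokine list (50.0%) and in 5 of 20 of the feedback list (25.0%). By contrast they were in 1 of 61 ribosomal protein promoters (1.64%) and in 0 of 35 of the hypoxia list. The ID1 promoter held none in this window. Stretches around the motif are shown for those genes with a motif whose N108 and M3 levels were given above, 5′ to 3′ on the gene's strand, with the motif in capitals.
NFKBIA, chr14:35404791-35404860, minus strand: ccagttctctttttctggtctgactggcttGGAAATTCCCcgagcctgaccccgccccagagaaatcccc
TNFAIP3, chr6:137867162-137867243, plus strand: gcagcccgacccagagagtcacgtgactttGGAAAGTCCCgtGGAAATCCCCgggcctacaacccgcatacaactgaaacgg
CXCL8, chr4:73740448-73740516, plus strand: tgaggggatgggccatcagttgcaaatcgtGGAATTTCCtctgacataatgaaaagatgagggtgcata
CXCL1, chr4:73869284-73869354, plus strand: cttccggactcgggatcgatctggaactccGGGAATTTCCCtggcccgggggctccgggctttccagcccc
CXCL2, chr4:74099233-74099303, minus strand: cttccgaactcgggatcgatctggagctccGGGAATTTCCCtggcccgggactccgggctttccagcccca
CXCL3, chr4:74038728-74038798, minus strand: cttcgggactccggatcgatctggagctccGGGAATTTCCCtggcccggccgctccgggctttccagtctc
CCL20, chr2:227813733-227813802, plus strand: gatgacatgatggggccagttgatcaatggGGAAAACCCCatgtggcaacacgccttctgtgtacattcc
ICAM1, chr19:10270904-10270972, plus strand: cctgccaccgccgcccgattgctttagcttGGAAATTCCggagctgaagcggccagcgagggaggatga
NFKBIZ, chr3:101827740-101827806, plus strand: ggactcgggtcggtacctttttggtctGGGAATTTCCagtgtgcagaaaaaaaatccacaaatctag
ZFP36, chr19:39406723-39406792, plus strand: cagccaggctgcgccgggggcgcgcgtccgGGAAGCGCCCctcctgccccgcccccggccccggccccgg
CXCL1, CXCL2 and CXCL3 share the core GGGAATTTCCC, and TNFAIP3 holds a pair of motifs that differ in sequence. A match is a description of the letters and does not show that a factor binds there.

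The 10 highest and 10 lowest fold changes, NFKBIA among them, were taken from called genes with at least 5 CPM in the higher line and libraries that did not overlap, and all 20 had the same sign untreated. Except for NFKBIA, TNF did not change any of these genes past the threshold in either line. Highest in N108 was ZNF502, a zinc finger gene, with 971 counts in the 3 N108 libraries with TNF and 1 count in the 3 M3 libraries, a ratio of 938 with a counting interval of 168 to 37100. SPARC, a secreted glycoprotein that binds matrix, was at 40.6, 39 and 41 CPM in N108 and 0.454, 0.471 and 0.434 CPM in M3 libraries (log2 fold change 6.47, SE 0.1, adjusted p = 2.1e-26). The WT line with TNF averaged 64.4 CPM of SPARC. RNF43, a ubiquitin ligase that removes Wnt receptors from the surface, was at 31, 35.9 and 29.4 CPM in N108 and 2.71, 2.69 and 2.77 CPM in M3 libraries (log2 fold change 3.56, SE 0.08, adjusted p = 1.2e-22). Here the WT line, at 4.29 CPM, was closer to M3.

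The rest of the upper 10 had log2 fold changes between 2.11 and 4.42. ZNF711, an X-linked zinc finger gene, was at 16.9, 15.1 and 18.7 CPM in N108 and 0.736, 0.758 and 0.868 CPM in M3 libraries. ANXA10, an annexin known from gastric epithelium, was at 28.5, 26.4 and 31.7 CPM in N108 and 2.62, 2.21 and 2.01 CPM in M3 libraries. S100A10, the partner of annexin A2, was at 58.9, 60 and 55.4 CPM in N108 and 12.7, 14.1 and 13.6 CPM in M3 libraries. The N108 and M3 libraries of these genes were far apart. PPP1R1B, a regulator of protein phosphatase 1, had a log2 fold change of 2.72, FABP6, the ileal bile acid binding protein, 2.66, the long noncoding RNA LNCAROD 2.13 and BHLHE41, a repressor of the circadian clock, 2.12.

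Lowest in N108 was RIMS1, a scaffold of presynaptic release sites, with 0 counts in the 3 N108 libraries and 1171 in the 3 M3 libraries, at least 404-fold lower by a floor of 3 counts over the group. SPARCL1, the paralogue of SPARC, went against it, at 0.587, 0.771 and 0.433 CPM in N108 and 31.8, 30.8 and 31.2 CPM in M3 libraries (log2 fold change -5.72, SE 0.11, adjusted p = 2e-24). GATA3, a transcription factor of lymphoid and some epithelial lineages, was at 3.86, 4.28 and 3.56 CPM in N108 and 31.6, 31.6 and 32.3 CPM in M3 libraries (log2 fold change -3.03, adjusted p = 7.7e-22). The WT line averaged 0.0875 CPM of SPARCL1, below both mutant lines, and 6.04 CPM of GATA3, between them. MEF2C, a transcription factor of muscle and neurons, was at 13.1, 11.8 and 15.3 CPM in N108 and 48.3, 52.6 and 45.5 CPM in M3 libraries (log2 fold change -1.87). SCG2, a granin of secretory vesicles, was at 28.6, 28.5 and 29.1 CPM in N108 and 118, 108 and 114 CPM in M3 libraries (log2 fold change -1.98). DNAH2, a dynein of cilia, had -4.16, PODXL2, a sialomucin, -2.74, GFY -2.15 and GALNT7, an enzyme of O-glycosylation, -2.06, and NFKBIA completed the lower 10.

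**Figure D3:**
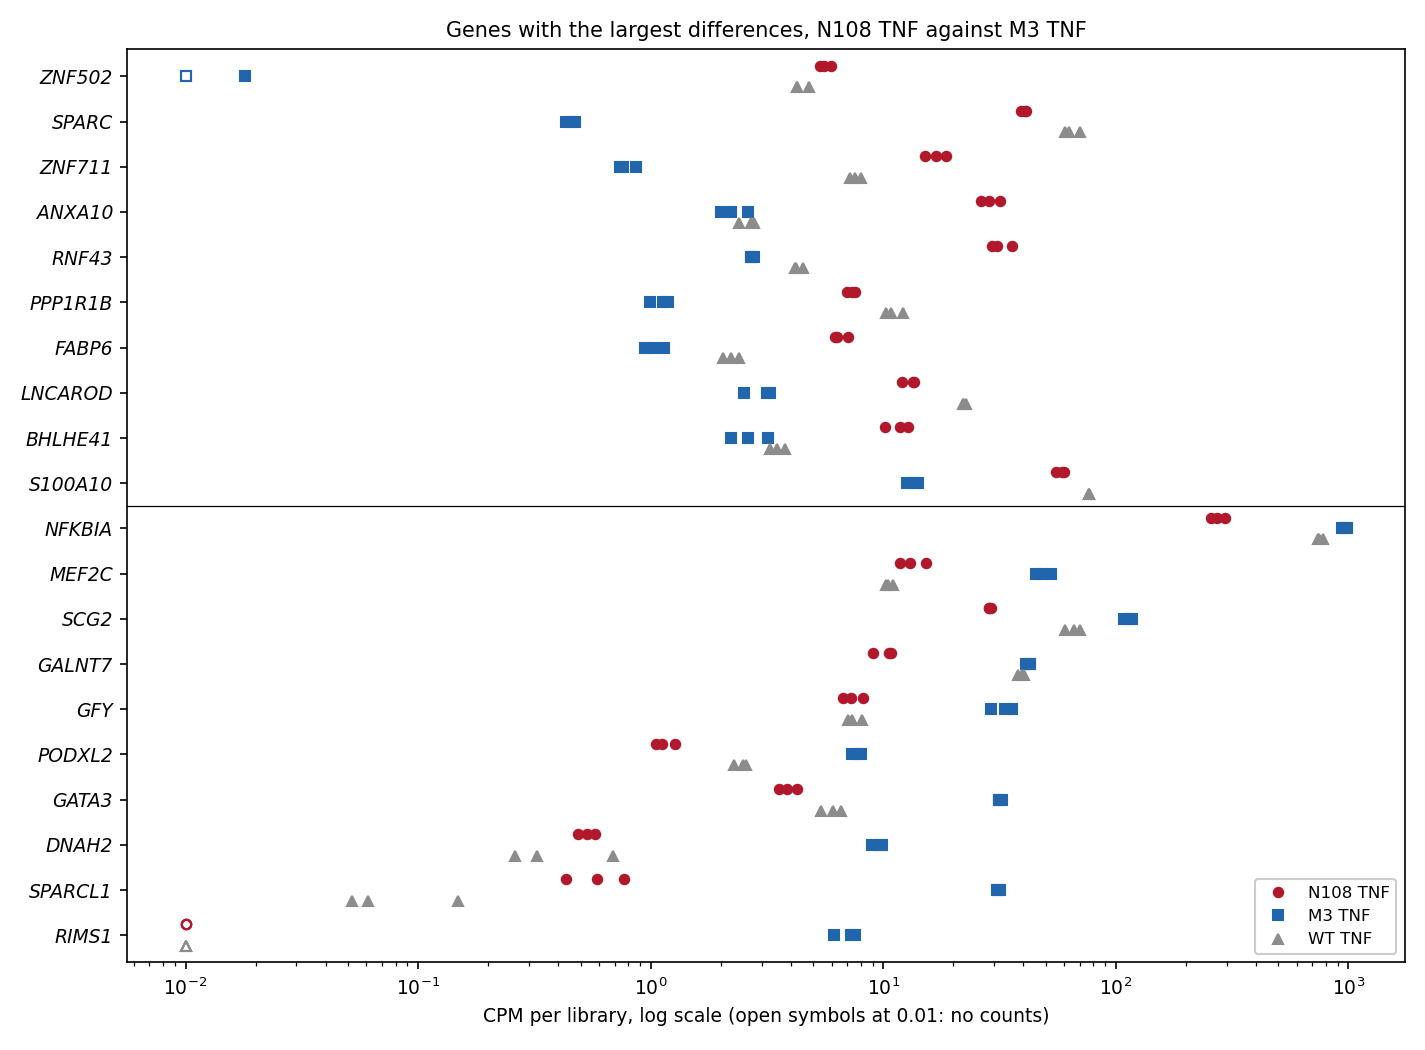
CPM of the 10 highest and 10 lowest log2 fold changes of N108 over M3 with TNF, one symbol per library on a log axis, with the WT line with TNF for reference and open symbols at 0.01 where a library had no counts. N108 and M3 libraries are apart for every gene shown, which was a condition of the choice, and WT is closer to N108 for SPARC and to M3 for RNF43.

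Wnt pathway genes were mostly higher in N108. Of 23 tested of 28, 17 were higher and 3 lower, with a median log2 fold change of 0.40, and untreated 16 were higher and 3 lower. Besides RNF43, DKK1, a secreted inhibitor of Wnt coreceptors, was at 357, 349 and 376 CPM in N108 and 134, 137 and 139.7 CPM in M3 libraries (log2 fold change 1.39, SE 0.048, adjusted p = 1.4e-18). AXIN2, a feedback scaffold of β-catenin decay, was at 17.1, 14.6 and 15.9 CPM in N108 and 6.96, 6.6 and 6.87 CPM in M3 libraries (log2 fold change 1.22, adjusted p = 1.4e-13). The lines did not overlap in any of these. RNF43, DKK1 and AXIN2 are known as negative feedback genes of the pathway. Set against WT with TNF, in comparisons that share the WT libraries, the list's median was 0.12 in N108 and -0.51 in M3.

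Intestinal stem cell genes, the subject of the series, were in part the same genes. Of 18 tested members of the adult list of 26, 9 were higher and 3 lower, with ZNRF3, the paralogue of RNF43, at 74.5, 73.5 and 77.3 CPM in N108 and 41.5, 43.5 and 40.8 CPM in M3 libraries (log2 fold change 0.84, adjusted p = 7.3e-14). LGR5, ASCL2 and OLFM4, which define these cells in the crypt, did not pass the filter on low counts. Of 24 tested genes of fetal-like regenerative epithelium, 11 were higher, SPARC and ANXA10 among them, and 4 lower. AREG, an EGF receptor ligand of that list, was at 176, 174 and 181 CPM in N108 and 278, 287 and 301 CPM in M3 libraries (log2 fold change -0.70, adjusted p = 2.7e-12). Both lists were thus mixed, with untreated counts of 9 higher and 4 lower, and 9 higher and 8 lower.

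Enterocyte genes that passed the filter on low counts were mostly higher in N108. Of 39 enterocyte genes 12 were tested, and 10 were higher and 1 lower with a median of 1.33, against 20.0% and 17.3% of all genes. Of the called members, 4 were under 1 CPM. Set against WT with TNF, in comparisons that share the WT libraries, 8 of the 12 were lower and 4 higher in N108 (median -1.06). In M3, 8 were lower and 0 higher by edgeR (median -1.4). DPP4, a brush border peptidase, was at 89.1, 79.7 and 89.4 CPM in N108 and 25.1, 24.5 and 23.6 CPM in M3 libraries (log2 fold change 1.82, SE 0.054, adjusted p = 5.9e-20). HNF4A, a transcription factor of gut and liver epithelium, was at 3.86, 4.15 and 5 CPM in N108 and 1.03, 0.964 and 0.868 CPM in M3 libraries (log2 fold change 2.18). CEACAM1, a cell adhesion molecule, had 1.40. No library of one line reached those of the other. Secretory lineage genes counted 4 higher and 2 lower of 18, a share of higher calls near that over all genes, with the iron-binding LCN2 at 3.24 and SCG2 at -1.98.

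Keratins were higher in 10 and lower in 1 of 16, with a median log2 fold change of 0.44. KRT18 was at 1100.0, 991 and 944 CPM in N108 and 594, 625 and 649 CPM in M3 libraries (log2 fold change 0.70, adjusted p = 1.7e-11), and its partner KRT8 was at 2474, 2451 and 2273 CPM in N108 and 1713, 1776 and 1813 CPM in M3 libraries (log2 fold change 0.44, adjusted p = 3.9e-08). Both are among the epithelial markers summed above, whose part in other results was not tested. Both lines were below WT, in which KRT8 averaged 3062 CPM with TNF. Junction genes were mixed, with 10 higher and 5 lower of 29, against 20.0% and 17.3% of all genes. Among them, the adherens cadherin CDH1 was at 176, 179 and 181 CPM in N108 and 136, 134 and 136 CPM in M3 libraries (log2 fold change 0.40, adjusted p = 4.4e-09). CLDN2, a leaky-pore claudin, had 2.04, and the plakophilin PKP3 0.39.

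HOX genes, which Polycomb holds in check and which give positional identity along the gut, were higher in 16 and lower in 0 of 32 tested by edgeR, and untreated 14 were higher and 2 lower. Over all genes with TNF, 20.0% were higher and 17.3% lower. Of the called HOX genes, 3 were under 1 CPM in both lines. No member was lower at an unadjusted p under 0.05 or by DESeq2 (0 and 0), and the median log2 fold change was 0.23. HOXA13, the hindmost gene of its cluster, was at 28, 25.2 and 31.9 CPM in N108 and 5.97, 6.62 and 7.22 CPM in M3 libraries (log2 fold change 2.11, SE 0.088, adjusted p = 6.5e-16), with WT at 20.5 CPM. HOXB8 was at 71.6, 79.7 and 72.5 CPM in N108 and 35.9, 37.4 and 40.6 CPM in M3 libraries (log2 fold change 0.97), and HOXB6 had 0.92. For these 3 genes every N108 library lay above every M3 library. The Polycomb genes themselves counted 8 higher and 7 lower of 36 with a median of 0.01, near the shares over all genes of 20.0% and 17.3%. Among the higher members, the chromobox genes CBX7 and CBX2 had log2 fold changes of 0.50 and 0.38.

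Other developmental pathways leaned to N108. Of 31 BMP and TGF-β pathway genes, 15 were higher and 4 lower with a median of 0.22. BMP4, a ligand, was at 164, 169.8 and 165 CPM in N108 and 97.8, 94.3 and 91.4 CPM in M3 libraries (log2 fold change 0.82, adjusted p = 9e-14), and the inhibitory SMAD6 was at 21.1, 22.2 and 20.6 CPM in N108 and 8.54, 8.53 and 9.57 CPM in M3 libraries (log2 fold change 1.26, adjusted p = 4e-15). INHBA, the activin A subunit, went the other way, at 0.13, 0.0579 and 0.2 CPM in N108 and 3.17, 4.39 and 3.38 CPM in M3 libraries (log2 fold change -4.75). The lines did not overlap for any of the 3. Notch pathway genes were higher in 12 and lower in 1 of 23, with the ligand JAG1 at 99.5, 93.1 and 95.5 CPM in N108 and 56.2, 55 and 56.3 CPM in M3 libraries (log2 fold change 0.78, adjusted p = 6e-13), the coactivator MAML2 at 0.99 and DTX4 at 0.40. Retinoic acid pathway genes were higher in 9 and lower in 0 of 15, and untreated in 7 and 1. With TNF, 0 were lower at an unadjusted p under 0.05 or by DESeq2, and 7 were higher and 2 lower with the GC trend removed. TGM2, a transglutaminase that retinoids induce, had 0.73, the retinoid-degrading CYP26B1 0.56 and the retinol transporter STRA6 2.33.

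Hypoxia and glycolysis genes were mostly higher in N108. Of 39 tested of 40, 29 were higher and 3 lower in N108 with TNF (median log2 fold change 0.39), against 15 higher and 3 lower untreated (median 0.16). EGLN1, an oxygen-sensing prolyl hydroxylase, was at 39.4, 45.3 and 37.6 CPM in N108 and 22.9, 24.7 and 25.7 CPM in M3 libraries (log2 fold change 0.74, adjusted p = 3.2e-09). HK1, a hexokinase, was at 146, 146 and 134 CPM in N108 and 101, 104 and 106 CPM in M3 libraries (log2 fold change 0.45, adjusted p = 9.7e-09). SLC2A3, a glucose transporter, was at 2.69, 3.41 and 2.75 CPM in N108 and 0.877, 0.718 and 0.832 CPM in M3 libraries (log2 fold change 1.85). No libraries of the lines overlapped for these genes. The 15 genes of the interaction hold no member of this list, so the larger count with TNF is not a shown difference between conditions. With the GC trend removed, 28 were higher and 4 lower.

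Cholesterol and fatty acid synthesis genes were higher in 20 and lower in 3 of 33 (median 0.25), and untreated in 24 and 2. INSIG1, a brake on sterol synthesis, was at 71.4, 71 and 74.5 CPM in N108 and 41.4, 44 and 42.9 CPM in M3 libraries (log2 fold change 0.76, adjusted p = 1.1e-12), which did not overlap. The desaturase SCD had 0.48. Both genes were at lower means in N108 and M3 than in WT with TNF, where INSIG1 averaged 123 CPM.

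Genes of cell division and of the ribosome moved in opposite directions. Of 39 mitosis genes, 27 were higher and 0 lower by edgeR with TNF (median 0.25), and 31 and 0 untreated, and 0 were lower with TNF at an unadjusted p under 0.05 or by DESeq2. PLK1, the polo kinase of mitotic entry, averaged 147 ± 8.39 CPM in N108 and 99.2 ± 2.86 CPM in M3 (SD, n = 3 each), without overlap (log2 fold change 0.57, adjusted p = 5.2e-10), CENPA had 0.56 and CCNB2 0.44. Both lines were below WT with TNF in this list, with medians of -0.33 in N108 and -0.55 in M3 in comparisons that share the WT libraries. Of 43 genes of DNA replication, 18 were higher and 2 lower, the licensing factor CDT1 at 0.36 and TK1 at 0.42 among the higher and the cyclin CCNE2 at -0.54 among the lower.

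Cytosolic ribosomal protein genes were lower in 60 and higher in 0 of 77 by edgeR with TNF (median -0.27), and in 76 and 0 untreated (median -0.35). With TNF, 0 were higher at an unadjusted p under 0.05 or by DESeq2, and without N108 TNF replicate 3 the counts were 53 lower and 1 higher. RPS25 was at 590.2, 486 and 561 CPM in N108 and 789, 800.4 and 824 CPM in M3 libraries (log2 fold change -0.56, adjusted p = 4.7e-09). RPL22 was at 205, 193 and 219 CPM in N108 and 283, 289 and 307 CPM in M3 libraries (log2 fold change -0.51, adjusted p = 2.2e-09), and RPS18 had -0.48. The M3 line stood farther above WT with TNF (list median 0.46) than the N108 line did (0.23). These genes have many processed copies in the genome with near-identical sequence, so how reads were assigned among them is uncertain.

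**Figure D4:**
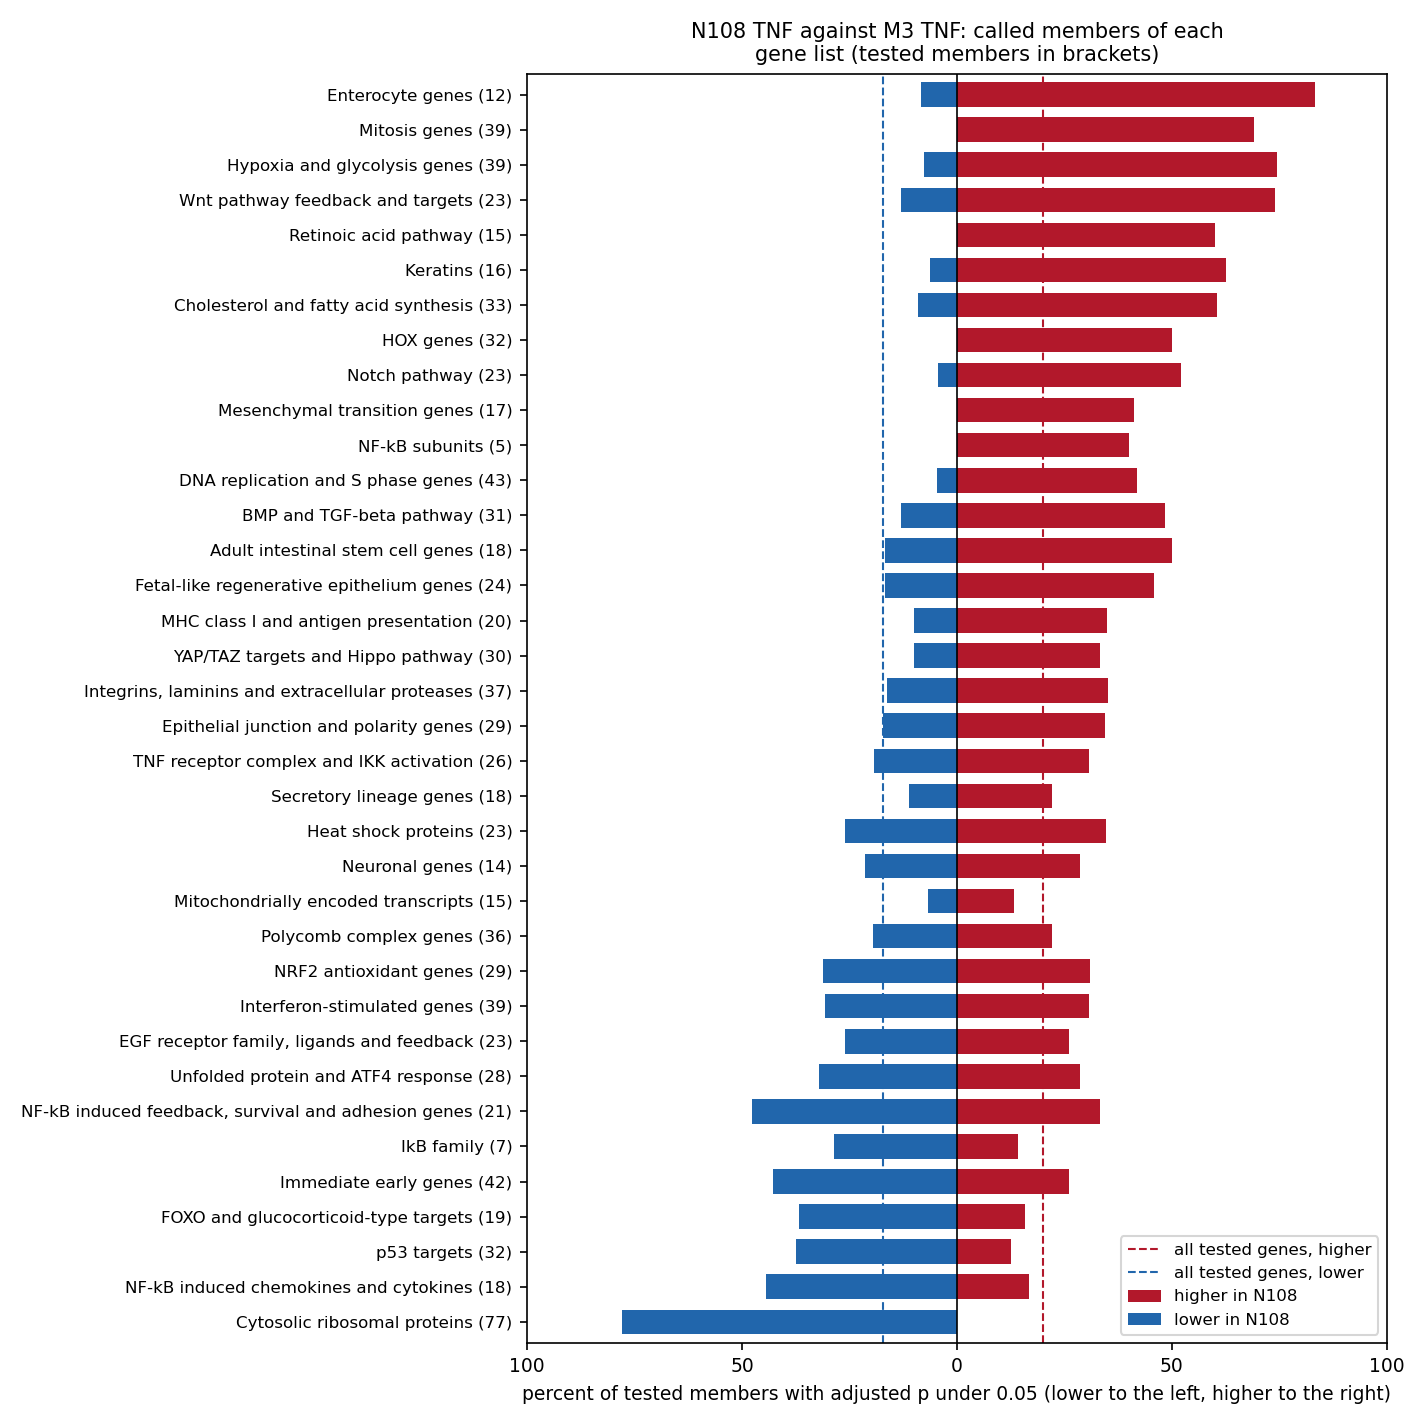
Percent of the tested members of each gene list with an adjusted p under 0.05 in N108 against M3 with TNF, higher to the right and lower to the left, with dashed lines at the shares over all tested genes, 20.0% higher and 17.3% lower. Enterocyte, hypoxia, Wnt and mitosis genes reach farthest to the right, and ribosomal protein genes farthest to the left.

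The p53 target list was lower in 12 and higher in 4 of 32 with TNF (median -0.09), and in 8 and 10 untreated. Shares over all genes with TNF were 17.3% lower and 20.0% higher. PLK2 was at 85.1, 82.8 and 85.9 CPM in N108 and 110.3, 107 and 106 CPM in M3 libraries (log2 fold change -0.34, adjusted p = 7.8e-07), TP53I3 had -0.50 and PHLDA3 had 0.44. Genes of the FOXO and glucocorticoid type were lower in 7 and higher in 3 of 19, with PIK3IP1 at -1.18 and KLF9 at -0.53 against TSC22D3, the glucocorticoid-induced leucine zipper, at 0.83. YAP/TAZ and Hippo genes were higher in 10 and lower in 3 of 30, with NT5E at 0.64, F3 at 0.67 and NUAK2 at -0.73.

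Other lists had calls in both directions, with the exception of the mesenchymal one by edgeR. Their counts stand beside 20.0% higher and 17.3% lower over all genes. Interferon-stimulated genes were higher in 12 and lower in 12 of 39, with OAS3 at 0.41, OASL at 0.67 and STAT2 at -0.34. Class I antigen presentation genes were higher in 7 and lower in 2 of 20, with the peptide transporter TAP2 at 0.42 and the chaperone CALR at -0.33. Integrins, laminins and proteases were higher in 13 and lower in 6 of 37, with ITGB4 at 0.63 and LAMA4 at 1.77 as higher members. Mesenchymal transition genes were higher in 7 and lower in 0 of 17 by edgeR, with 1 lower at an unadjusted p under 0.05 and 1 by DESeq2, and 5 higher and 2 lower with the GC trend removed, with FN1 at 0.50 and ITGA5 at 0.35. EGF receptor family and feedback genes were split at 6 and 6 of 23, with DUSP4 at 0.28 and DUSP6 at -0.39.

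Stress programmes were likewise divided, beside shares over all genes of 20.0% higher and 17.3% lower. Unfolded protein and ATF4 genes counted 8 higher and 9 lower of 28, with CEBPB at 0.66, DDIT4 at 0.54 and ATF6 at -0.29. Heat shock genes counted 8 and 6 of 23, with HSPH1 at 0.37, HSPB8 at 0.64 and DNAJB4 at -0.57. NRF2 genes counted 9 and 9 of 29, with the transketolase TKT at 0.41, OSGIN1 at 0.50 and the ferritin heavy chain FTH1 at -0.30. Neuronal genes counted 4 higher and 3 lower of 14, with L1CAM at 0.53, TUBB3 at 0.43 and MAP2 at -0.69. Of 15 mitochondrially encoded transcripts, 2 were higher, the ribosomal RNAs MT-RNR1 (0.49) and MT-RNR2 (0.38), and MT-ND3 (-0.60) was lower, a call lost without N108 TNF replicate 1 or 2 or M3 TNF replicate 2.

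Transcript GC content moved with the fold change under TNF. Over 18537 genes with a known GC content, fold change and GC content had a Spearman rho of 0.32 across genes, which are not independent replicates, and the median log2 fold change was -0.13 in the tenth of genes with the lowest GC content and 0.17 in the highest. Untreated, rho was -0.03, though single untreated libraries also deviated by GC content. Their deviations from the group mean had a rho of 0.13, -0.39 and 0.25 in N108 and -0.34, -0.31 and 0.46 in M3. The median GC content was 55.3% for genes higher in N108, 44.3% for genes lower and 49.0% for all. With the trend removed from each library, 7295 genes were called, and 5658 of the 7107 kept their call and direction. Beyond this refit, the part of GC content in single small fold changes was not tested. The values for NFKBIA, the chemokines, the largest differences and the directions of the Wnt, hypoxia, mitosis, HOX and ribosomal lists held with the trend removed.

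**Figure D5:**
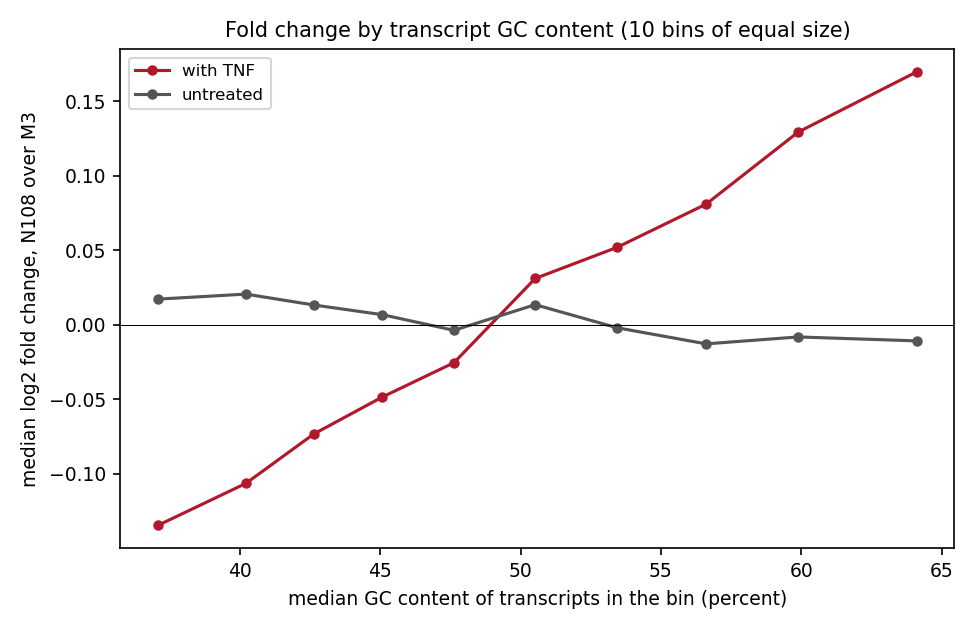
Median log2 fold change of N108 over M3 (vertical) in 10 bins of genes with equal numbers by transcript GC content (horizontal, percent), with TNF and untreated. The line with TNF climbs from -0.13 to 0.17 and the untreated line stays near 0.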

How the data were processed

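Total RNA of 18 HCT116 libraries (6 groups of 3) was sequenced as paired-end reads, per the labels. The raw counts per gene were deposited by the authors. The submitters' processing notes name the build hg38 and the tools DESeq2 1.38.3, Subread 2.0.1 (featureCounts), STAR 2.7.8 and Trim Galore 0.6.6. The sources used here state neither how strand was handled nor which annotation was counted, so overlapping and antisense genes are uncertain. The authors also deposited a normalized table on a log2 scale (27339 genes, values from 8.04 to 19.28), which was checked and not used for tests.

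Counts of all 18 libraries were fitted together with edgeR 4.0.16 in R 4.3.3 (limma 3.58.1): filterByExpr with a minimum count of 10, TMM scaling, and the robust quasi-likelihood test, two-sided, with 12 residual degrees of freedom and Benjamini-Hochberg adjustment over 19038 genes at 0.05. The filter kept 99.97% of counts. CPM values used the scaled library sizes. Alternatives were DESeq2 1.42.0, its size factors in edgeR, a filter of 1 CPM in 3 libraries, no filter, the libraries of the contrast alone, a replicate block, removal of the GC trend, a minimum fold of 1.5, and leaving out each library. Gene symbols came from a name table, which held none for 2376 tested genes.

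Named genes were NFKBIA and members of the NF-κB lists with a mean of at least 1 CPM, the 10 highest and 10 lowest fold changes among called genes with at least 5 CPM in the higher line and no overlap, the most extreme interaction genes, and the called members with the smallest p of the other lists, a few of which are not reported here. The groups compared and the gene lists were chosen with earlier results of these data known. Replicates of a group differed by more than sampling noise. Counting intervals and floors cover counting error only.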

Additional observations from a re-analysis of the deposited data

Results flagged for a closer look

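The difference between N108 and M3 itself differed between TNF and untreated libraries for 15 genes, by edgeR's quasi-likelihood test of the interaction with Benjamini-Hochberg adjustment over 19038 genes. The value is the log2 fold change of N108 over M3 with TNF minus the same untreated. In 14 genes it was negative. It was -0.96 for CXCL8, -0.87 for NUAK2, -0.76 for TNFAIP3, -0.65 for ICAM1 and -0.62 for PDGFB. It was -0.58 for ATF3, -0.57 for NFKBIZ, -0.56 for MAFF, -0.47 for CD83 and -0.44 for IRF1. It was -0.44 for NFKBIA, -0.44 for ZFP36, -0.41 for SDC4 and -0.32 for PLK2. ID1 was the gene with a positive value, 0.46.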

How the results depend on the processing

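The count of genes that differed with TNF was 7107, between 6028 and 7222 when 1 library was left out, and between 6138 and 7295 under the other settings except a minimum fold of 1.5, which left 528 (343 higher, 185 lower). Untreated, the count was 5994, and it was 4913 to 5353 with a library left out and 485 with the minimum fold. Under the other settings it was 5615 to 7107, highest with the GC trend removed (3828 higher, 3279 lower). The interaction count of 15 was the least stable: it was 47 by DESeq2 (28 positive, 19 negative), 163 with no low-count filter (119 and 44), 7 from the libraries of the contrast alone (1 and 6), 23 with the GC trend removed (1 and 22), and 7 to 650 with a library left out. The 650 calls without N108 TNF replicate 3 were 508 positive and 142 negative, against 1 and 14 with all libraries. Most calls thus had a positive value in that setting, by DESeq2 and with no filter. The 15 genes kept their call and direction in each of these settings, so the positive majority was among genes not called in the main fit. With the minimum fold of 1.5 it was 0 by edgeR, with 117 genes at an unadjusted p under 0.05. The cause of these shifts was not tested.

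Replicate numbers did not pair the libraries: deviations of same-numbered N108 and M3 libraries with TNF correlated at -0.027, -0.024 and -0.101. With a replicate block, 6979 genes differed with TNF, 5867 untreated and 14 in the interaction.

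Among the named genes, 13 values turned sign, all of genes that did not pass the threshold. With the GC trend removed these were NFKB2 (-0.07), NFKBIE (-0.10), NFKBIL1 (-0.14) and PDGFB (-0.07). With a library left out they were CSF1 (range -0.10 to 0.06), NFKBIE (-0.02 to 0.07), NFKBIL1 (-0.03 to 0.06), PDGFB (-0.08 to 0.16) and TNFAIP2 (-0.11 to 0.05). NFKBIA stayed between -1.87 and -1.76 under every setting run.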
